A study of Mus musculus with 2 samples.

Results

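The SOX trio of chondrocyte transcription factors (Sox5, Sox6 and Sox9) and 7 genes of cartilage proteins other than collagens (Acan, Hapln1, Lect1, Prg4, Cilp, Chad and Matn3) were followed in mouse primary chondrocytes with and without knockdown of Gpx4. They were taken by gene symbol, and all 10 were found among the 21878 genes listed. The cells came from C57BL/6 mice, were grown in culture with serum and received lentivirus. One culture, shGpx4, carried a hairpin against Gpx4, the gene of a lipid hydroperoxide reductase, and the other, shNC, a control hairpin. The labels name neither age nor sex, nor the cartilage of origin, nor how many animals were pooled. Each group is 1 library of poly(A) RNA, so no difference could be tested and each one describes these 2 libraries.

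SOX9 switches on the genes of cartilage matrix during chondrocyte differentiation, and SOX5 and SOX6, which lack an activation domain of their own, bind beside it at many of the same enhancers. In cartilage, aggrecan (Acan) holds water in the tissue and is fastened to hyaluronan by link protein (Hapln1). Chondrocytes passaged on plastic are known to lose aggrecan and type II collagen, a change called dedifferentiation.

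The library totals behind the values were 21313211 reads for shGpx4 and 19729142 reads for shNC. Gpx4 was at 96.2 FPKM (reads scaled by gene length and library total) in shGpx4 and 161 FPKM in shNC, which leaves 59.9% of the shNC level (counting interval 56.9% to 63.0%). All 4 measured Y-linked genes were at least 1.5-fold lower in shGpx4, with a summed level of 14.6 FPKM in shGpx4 and 33.9 FPKM in shNC, a difference that the labels do not describe. Whether that bears on any value below was not tested. After adding 1 FPKM to each level, shGpx4 was divided by shNC and the log2 taken; this is the ratio given unless an FPKM ratio is named. Genes with a mean of at least 1 FPKM over both libraries are called measured, and counting intervals are exact 95% intervals that cover counting error only. The deposited values divide out into whole reads over a whole gene length, and the reads given are the smallest that do so.

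Because the trio acts on promoters and enhancers of cartilage genes, the 250 bases before the RefSeq gene starts (GRCm38.p6, printed 5′ to 3′ on the gene's strand) were searched for 3 words of the SOX binding core on both strands. The first word searched was AACAAT, a further word was ACAAAG, and the last word was ACAATG. The first and the last can overlap. RefSeq entries were at hand for 8 of the 10 genes, not for Sox9 and Prg4, and gave 13 starts in all. The windows shown are those of Lect1, the gene with the highest ratio, and Cilp, the measured gene with the lowest. Those of Acan, whose level was near 0 in both libraries, and Sox5, a member of the trio with a word, follow. Capitals mark the SOX word.
Lect1: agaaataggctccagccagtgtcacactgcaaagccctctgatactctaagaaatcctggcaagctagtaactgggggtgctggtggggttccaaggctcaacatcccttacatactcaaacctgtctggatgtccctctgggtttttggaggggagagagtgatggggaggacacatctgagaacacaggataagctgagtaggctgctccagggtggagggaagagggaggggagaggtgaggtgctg
Cilp: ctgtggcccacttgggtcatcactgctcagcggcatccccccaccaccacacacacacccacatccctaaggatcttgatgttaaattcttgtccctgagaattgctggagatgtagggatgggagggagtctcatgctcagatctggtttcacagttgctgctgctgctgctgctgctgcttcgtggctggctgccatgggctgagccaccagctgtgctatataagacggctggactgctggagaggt
Acan: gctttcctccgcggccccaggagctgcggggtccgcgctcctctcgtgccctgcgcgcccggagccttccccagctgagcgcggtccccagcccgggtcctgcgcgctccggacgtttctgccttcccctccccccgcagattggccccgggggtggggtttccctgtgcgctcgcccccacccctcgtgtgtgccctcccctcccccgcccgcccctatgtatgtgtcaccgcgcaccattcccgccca
Sox5: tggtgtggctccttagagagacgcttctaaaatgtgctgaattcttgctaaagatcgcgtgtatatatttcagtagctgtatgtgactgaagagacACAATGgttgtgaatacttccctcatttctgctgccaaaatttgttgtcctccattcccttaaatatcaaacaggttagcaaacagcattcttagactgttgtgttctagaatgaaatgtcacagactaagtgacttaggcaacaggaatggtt
The Lect1 window lies at chr14:79662184-79662433 on the minus strand, that of Cilp at chr9:65264930-65265179 on the plus strand, that of Acan at chr7:79052976-79053225 on the plus strand and that of Sox5 at chr6:143947107-143947356 on the minus strand, at a start inside the annotated Sox5 span. The Sox5 window holds ACAATG, beginning 154 bases before the start. Of the 13 windows 6 hold a word, all of them windows of Sox5 or Sox6. Sox6 alone has 6 of the 13 starts and the other 7 genes have 1 each, so by gene 2 of 8 hold a word. In Lect1, Cilp, Acan, Hapln1, Chad and Matn3 none of the 3 words was found, which says only that these letters are not in these windows. Among all 32851 promoter windows of this length, 29.6% hold at least one of the words, with 9.42% holding AACAAT, 16.5% ACAAAG and 10.7% ACAATG.

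The 10 genes spanned a wide range of levels. Lect1 and Prg4 stood far above the others and made up 93.1% of the summed FPKM of the 10 genes in shGpx4 and 85.5% in shNC. Sox9, Hapln1, Cilp, Sox5 and Sox6 were well above the level of a few reads, Chad was at 3 reads in shGpx4 and 22 in shNC, and Matn3 and Acan were at 1 read in shGpx4 and 0 in shNC. For comparison, the median measured gene was at 9.98 FPKM in shGpx4 and 10.2 FPKM in shNC. Of the 10 genes, 7 were measured, a filter that left out Chad, Matn3 and Acan.

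**Figure D1:**
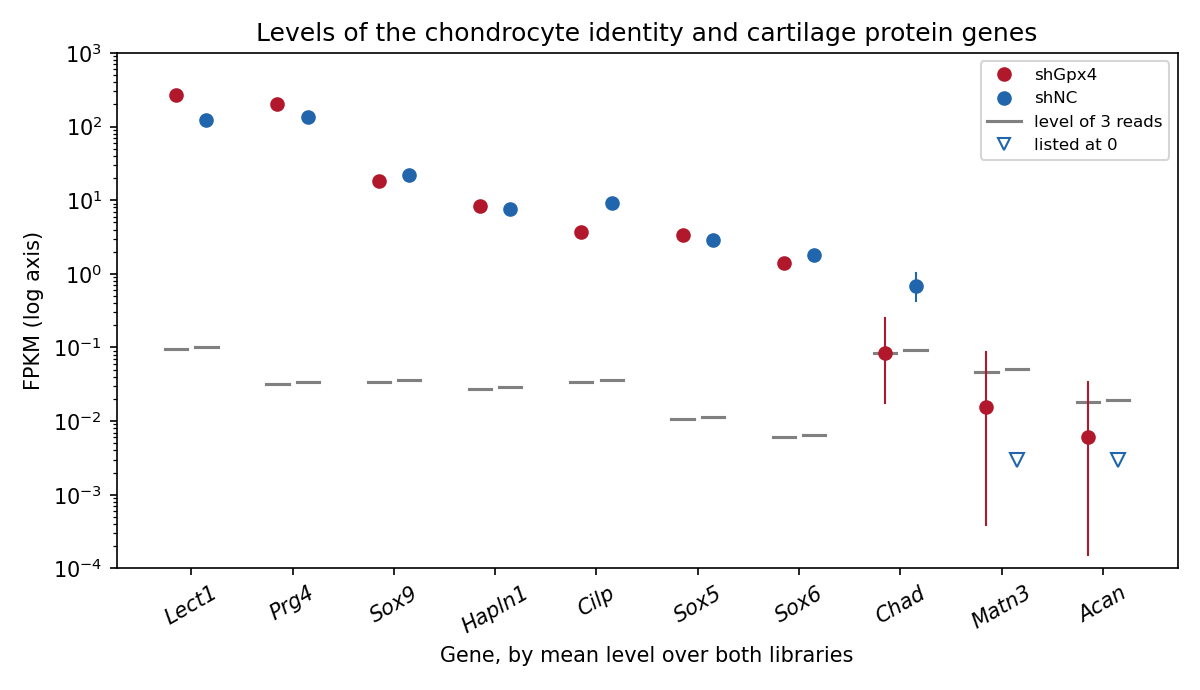
FPKM on a log axis for each gene in shGpx4 (red) and shNC (blue), ordered by mean level. Vertical lines are exact 95% Poisson intervals of the level (counting error only), grey bars the level that 3 reads would give, and open triangles, drawn at an arbitrary height, genes listed at 0. Lect1 and Prg4 lie above 100 FPKM in both libraries, and Matn3 and Acan lie under the level of 3 reads.

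The trio was present, and its members did not move the same way. Sox9, on chromosome 11 from 112782210 to 112787757, was at 18.2 FPKM (1607 reads) in shGpx4 and 21.8 FPKM (1782 reads) in shNC. It was thus lower in shGpx4, with a ratio of -0.25, an FPKM ratio of 0.835 and a counting interval of that ratio from 0.780 to 0.894. Sox6, on chromosome 7 from 115470872 to 116040776, was at 1.40 FPKM (696 reads) in shGpx4 and 1.83 FPKM (844 reads) in shNC. Its ratio of -0.24 was close to that of Sox9, and its FPKM ratio was 0.763 (counting interval 0.689 to 0.845). Without the added 1 FPKM the log2 ratios lay further apart, at -0.39 for Sox6 and -0.26 for Sox9, with overlapping counting intervals. Sox5, on chromosome 6 from 143828425 to 144782287, was at 3.39 FPKM (966 reads) in shGpx4 and 2.92 FPKM (769 reads) in shNC. It was higher in shGpx4, with a ratio of 0.17 and an FPKM ratio of 1.16 (counting interval 1.06 to 1.28). Its exons share 1330 bases with those of the antisense gene Sox5os1, so reads of both may enter its value. None of the trio reached 1.5-fold. In the deposited level per kilobase, Sox9 stood 5.36 times above Sox5 in shGpx4 and 7.47 times in shNC, multiples that depend on the gene lengths used.

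The levels of Sox5 and Sox6 depend on the gene length behind them. The deposited values imply lengths of 13361 bases for Sox5 and 23345 bases for Sox6, while the longest GENCODE vM21 transcripts measure 7243 and 8668 bases. Over those transcripts the same reads would give Sox5 a level of 6.26 in shGpx4 and 5.38 in shNC on the same scale, and Sox6 a level of 3.77 in shGpx4 and 4.94 in shNC. Sox5 would then stand above Cilp in shGpx4, where the deposited FPKM have it below. Sox9 would be at 18.2 in shGpx4 and 21.8 in shNC, fewer times above Sox5 than by the deposited FPKM. For the other 8 genes the implied length was between 80.4% and 104.6% of the union of GENCODE exons, and that of Sox6 was 157.4%. The length is the same in both libraries, so the ratios do not depend on it, apart from the 1 FPKM that is added.

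Among 17 other SOX genes, 3 were measured, and all 3 had ratios below 0, as did 58.7% of all measured genes. Sox4, a progenitor factor of the SOXC group, was at 21.0 FPKM in shGpx4 and 23.7 FPKM in shNC (-0.17), about the level of Sox9. Sox12 was at 3.93 FPKM in shGpx4 and 4.04 FPKM in shNC (-0.03), and Sox13, which belongs to the same SOXD group as Sox5 and Sox6, at 0.969 FPKM in shGpx4 and 1.42 FPKM in shNC (-0.30). The counting intervals of both hold 0. Sox11, a SOXC gene like Sox4, was under the measured level and went the other way, at 0.572 FPKM (103 reads) in shGpx4 and 0.216 FPKM (36 reads) in shNC, a log2 FPKM ratio of 1.41 (counting interval 0.84 to 2.00). Sox8, the closest relative of Sox9 together with Sox10, was at 5 reads in each library, and Sox10 was among 10 SOX genes listed at 0 in both.

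Aggrecan was nearly absent while its linker was present. Acan, on chromosome 7 from 79053226 to 79115099, was at 0.0061 FPKM in shGpx4, which is 1 read, and at 0 in shNC, where 3 reads would give 0.0196 FPKM. Both libraries were under the level of 3 reads, so no ratio is given. Hapln1, on chromosome 13 from 89540529 to 89611832, was at 8.46 FPKM (931 reads) in shGpx4 and 7.52 FPKM (766 reads) in shNC. It was slightly higher in shGpx4, with a ratio of 0.15 and an FPKM ratio of 1.13 (counting interval 1.02 to 1.24). The large proteoglycan of the same family that fibroblasts make, versican (Vcan), was at 3.53 FPKM in shGpx4 and 2.95 FPKM in shNC (0.20). The brain proteoglycan Bcan was at 0.0828 FPKM in shGpx4 and 0.0559 FPKM in shNC, and Ncan was listed at 0 in both. Of the other link protein genes, Hapln4 was at 0.866 FPKM in shGpx4 and 1.03 FPKM in shNC and Hapln3 at 0.173 FPKM in shGpx4 and 0.187 FPKM in shNC, both with counting intervals that hold 0. Hapln2 was at 0 in shGpx4 and at 2 reads in shNC.

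Lect1 had the highest ratio of the group. It encodes chondromodulin, a cartilage protein that inhibits blood vessel growth, is now named Cnmd, and lies on chromosome 14 from 79637682 to 79662194. It was at 270 FPKM (8521 reads) in shGpx4 and 124 FPKM (3611 reads) in shNC. That is a ratio of 1.12 and an FPKM ratio of 2.18 (counting interval 2.10 to 2.27), and 76 of the 10997 measured genes had a higher ratio. By level it ranked 177th of all genes in shGpx4 and 426th in shNC. Its paralog Tnmd, a marker of tendon, was at 0.263 FPKM (8 reads) in shGpx4 and 0.462 FPKM (13 reads) in shNC, and the counting interval of its ratio holds 0.

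Prg4, the gene of lubricin, which lubricates the joint surface and is made by superficial zone chondrocytes and synovial lining cells, lies on chromosome 1 from 150449412 to 150466221. It was at 203 FPKM (19392 reads) in shGpx4 and 135 FPKM (11963 reads) in shNC. It was higher in shGpx4, with a ratio of 0.58, and lay at the 1.5-fold line: the fold was 1.497 on the FPKM + 1 scale and 1.501 as a ratio of FPKM (counting interval 1.47 to 1.54). Its exons share 204 bases with those of Tpr on the opposite strand, which was at 29.2 FPKM in shGpx4 and 27.4 FPKM in shNC (0.09). Lect1 and Prg4 exchanged places between the libraries, with Lect1 the higher of them in shGpx4 and Prg4 in shNC, and the Poisson intervals of their levels did not overlap in either library.

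Cilp had the lowest ratio of the measured genes of the group. It encodes a secreted protein best known from the middle layer of articular cartilage and lies on chromosome 9 from 65265180 to 65280614. It was at 3.72 FPKM (329 reads) in shGpx4 and 9.07 FPKM (743 reads) in shNC. The ratio was -1.09 and the FPKM ratio 0.410 (counting interval 0.359 to 0.467), and only 42 of 10997 measured genes lay lower. In shGpx4 the Poisson interval of Cilp, 3.33 to 4.14 FPKM, overlapped that of Sox5, 3.18 to 3.61 FPKM, so these neighbours in the order of levels were not separated beyond counting error. In shNC Cilp stood above Hapln1 without overlap. The paralog Cilp2 was at 0.0467 FPKM (2 reads) in shGpx4 and 0.227 FPKM (9 reads) in shNC.

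Chad and Matn3 were at the level of a few reads in shGpx4. Chad, the gene of chondroadherin, a leucine-rich repeat protein that binds chondrocytes through an integrin, lies on chromosome 11 from 94565047 to 94569127. It was at 0.0852 FPKM (3 reads) in shGpx4 and 0.675 FPKM (22 reads) in shNC, where 3 reads would give 0.0920 FPKM. The FPKM ratio was 0.126, with a wide counting interval of 0.024 to 0.420. The gene lies within the span of Acsf2, on the opposite strand and with 0 shared exon bases, and Acsf2 was at 10.6 FPKM in shGpx4 and 10.5 FPKM in shNC. Whether reads from unspliced Acsf2 RNA enter the Chad value was not tested. Among related leucine-rich repeat genes, Prelp was at 638 FPKM in shGpx4 and 468 FPKM in shNC (0.44). Chadl was at 0.802 FPKM in shGpx4 and 1.03 FPKM in shNC, with a counting interval that holds 0.

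Matn3, the gene of matrilin-3, an adaptor protein of cartilage matrix, lies on chromosome 12 from 8947929 to 8972028. It was at 0.0156 FPKM (1 read) in shGpx4 and 0 in shNC, where 3 reads would give 0.0505 FPKM. The other matrilin typical of cartilage, Matn1, was listed at 0 in both libraries. Matn2, a matrilin found in many tissues, was at 10.5 FPKM in shGpx4 and 20.5 FPKM in shNC (-0.90). Matn4 was at 1.69 FPKM in shGpx4 and 1.05 FPKM in shNC (0.39). The expressed matrilins thus lay on either side of 0.

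Of the 7 measured genes of the group, 1 was at least 1.5-fold higher in shGpx4 (Lect1), 1 was at least 1.5-fold lower (Cilp) and 5 lay between. Among all 10997 measured genes, 2.99% were at least 1.5-fold higher and 1.96% at least 1.5-fold lower. The median ratio was 0.15 over the 7 genes and -0.04 over all measured genes. Counting intervals excluded 0 on the upper side for 4 genes and on the lower side for 3, while over all measured genes they did so for 18.1% and 27.3% on those sides. These intervals are narrow at this depth and say nothing of the spread between cultures. In bulk RNA, fewer cells of a type and less RNA per cell cannot be told apart.

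**Figure D2:**
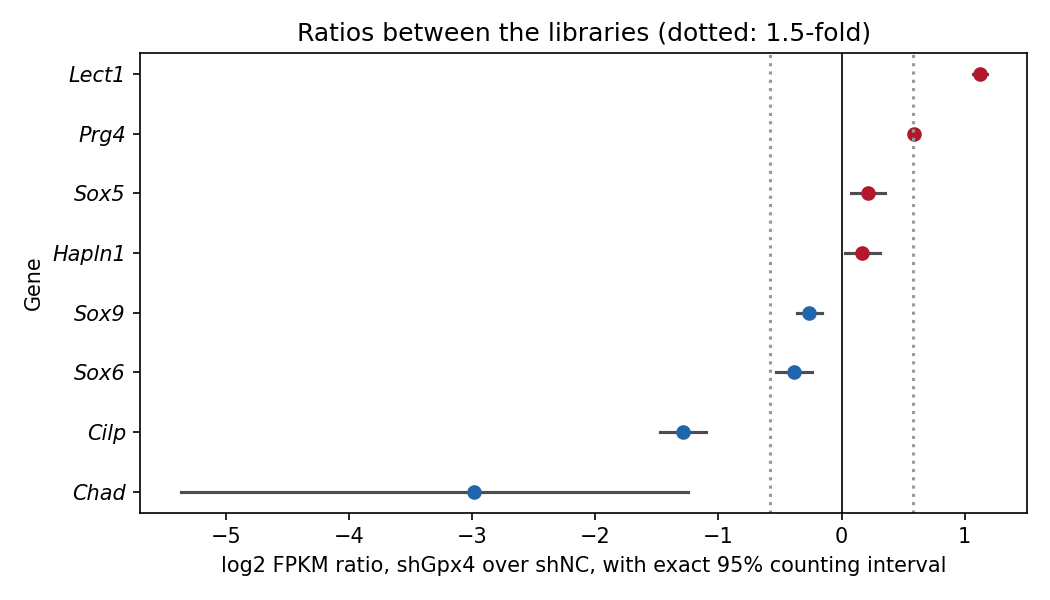
FPKM ratio (log2, shGpx4 over shNC) of the 8 genes with reads in both libraries. Points are ratios, horizontal lines exact 95% counting intervals, and dotted lines mark 1.5-fold. Lect1 and Prg4 are at the top, Cilp and Chad at the bottom, and the Chad interval, from 3 and 22 reads, is the widest.

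**Figure D3:**
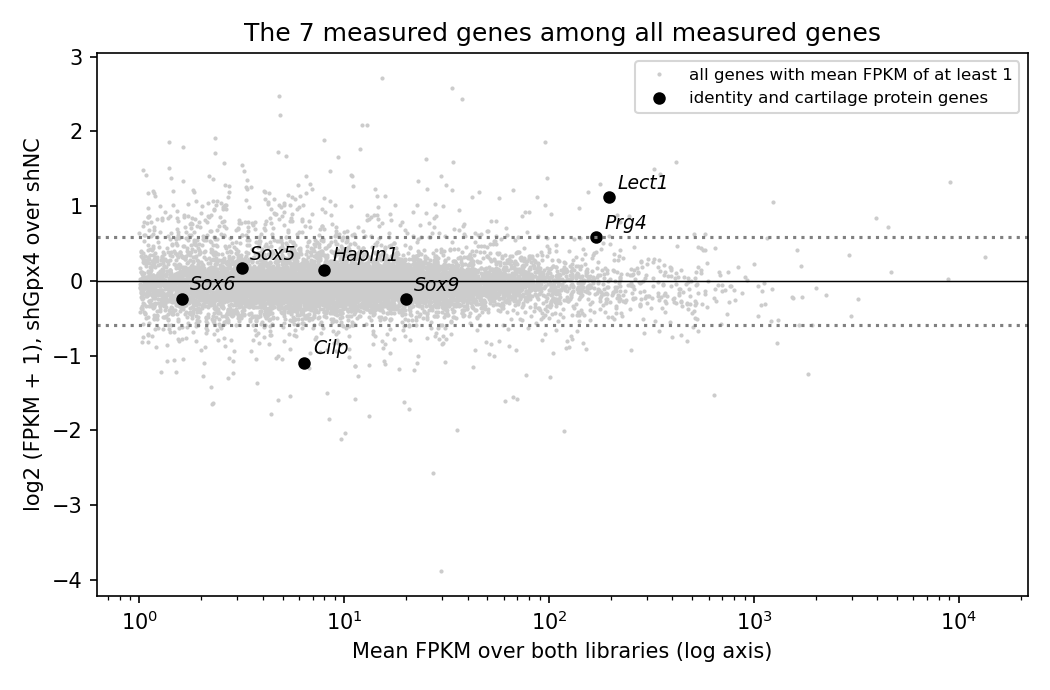
Ratio on the FPKM + 1 scale (log2, shGpx4 over shNC) against mean FPKM (log axis) for all 10997 measured genes (grey) and the 7 measured genes of the group (black). Dotted lines mark 1.5-fold. Lect1 and Cilp lie beyond them, Prg4 on the upper one, and the SOX trio and Hapln1 within.

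The collagens of cartilage were likewise uneven. Col2a1, the main collagen of hyaline cartilage and a direct SOX9 target, was at 58.4 FPKM in shGpx4 and 8.96 FPKM in shNC (2.58). Sox9 RNA was lower in shGpx4, and any link between these values was not tested. Col11a1, which joins Col2a1 in the fibril, was at 41.6 FPKM in shGpx4 and 47.0 FPKM in shNC (-0.17). Col27a1 was at 1.13 FPKM in shGpx4 and 1.47 FPKM in shNC (-0.22), with a counting interval that holds 0. The other 5 were under the measured level. Col9a3 was at 0.601 FPKM in shGpx4 and 0.786 FPKM in shNC, Col11a2 at 0.231 FPKM in shGpx4 and 0.374 FPKM in shNC, and the hypertrophy marker Col10a1 at 0.210 FPKM in shGpx4 and 0.551 FPKM in shNC. Col9a1 and Col9a2 were each at 1 read in shGpx4 and 2 reads in shNC. Of the 8 cartilage markers listed for checking the label, Sox9, Hapln1 and Col2a1 were measured in both libraries, Col11a2 was low, and Acan, Matn3, Matn1 and Col9a1 were at or under 3 reads in both. Other genes typical of cartilage were abundant in both, among them Lect1, Col11a1, Comp, the gene of cartilage oligomeric matrix protein, at 1421 FPKM in shGpx4 and 1666 FPKM in shNC (-0.23), and Fmod, the gene of fibromodulin, at 1039 FPKM in shGpx4 and 1141 FPKM in shNC (-0.13). Further genes of cartilage proteins were not: Ucma had 2 reads in shGpx4 and 9 in shNC, Cytl1 had 0 in shGpx4 and 1 in shNC, and Epyc was listed at 0 in both. The label is thus met by some of these markers and not by others. Col1a2 and Col1a1, of the fibroblast and dedifferentiation genes below, stood above Col2a1 in both libraries. Col1a2 was at 654 FPKM in shGpx4 and 678 FPKM in shNC, and Col1a1 at 272 FPKM in shGpx4 and 245 FPKM in shNC.

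Of 22 other cartilage proteins, 14 were measured: 3 lay at least 1.5-fold higher, 1 at least 1.5-fold lower and 10 between, with a median of 0.18. The decorin gene Dcn was at 5042 FPKM in shGpx4 and 2808 FPKM in shNC (0.84), the calcification inhibitor gene Mgp at 5626 FPKM in shGpx4 and 3411 FPKM in shNC (0.72), and Chil1, which encodes a secreted chitinase-like protein, at 95.5 FPKM in shGpx4 and 60.4 FPKM in shNC (0.65). Otor, which encodes a small secreted protein of the MIA family, was at 9.62 FPKM in shGpx4 and 21.9 FPKM in shNC (-1.11). The filter on the mean left out Susd5, which was also past 1.5-fold lower. It was at 0.339 FPKM (28 reads) in shGpx4 and 1.03 FPKM (79 reads) in shNC (-0.60). Most measured chondrogenic regulators beside the trio lay close to 0: of 21, 1 was at least 1.5-fold higher, none was at least 1.5-fold lower and the median was 0.01. That one was Arid5a, at 4.20 FPKM in shGpx4 and 2.04 FPKM in shNC (0.77). Mef2c (-0.49), Xylt1, which starts the sugar chains of proteoglycans (0.43), and Nkx3-2 (-0.37) followed in size. The counting interval of Nkx3-2, from 34 reads in shGpx4 and 49 in shNC, holds 0. Under the measured level only Mycn had a larger ratio than Arid5a, at 1.72 FPKM (95 reads) in shGpx4 and 0.137 FPKM (7 reads) in shNC (1.26). Smaller ratios were those of Bmpr1b, a BMP receptor gene, with 105 reads in shGpx4 and 48 in shNC (0.32), and Barx2, with 10 reads in shGpx4 and 0 in shNC (0.34).

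Enzymes that cut aggrecan and other cartilage proteins had 5 of 14 measured members at least 1.5-fold higher and 1 at least 1.5-fold lower, with a median of 0.08. They were Adamts1, at 151 FPKM in shGpx4 and 40.8 FPKM in shNC (1.86), Mmp12, at 2.55 FPKM (205 reads) in shGpx4 and 0.242 FPKM (18 reads) in shNC (1.51), Mmp3 (1.33), Mmp13 (1.30) and Adamts5 (1.28), and the lower one was Ctsk (-0.63). Mmp12 passed the filter on the mean through shGpx4 alone, and the same filter left out Mmp9, at 0.179 FPKM (13 reads) in shGpx4 and 0.805 FPKM (54 reads) in shNC. The aggrecanase gene Adamts4 was at 10.8 FPKM in shGpx4 and 7.19 FPKM in shNC (0.53). Adamts1, Adamts4 and Adamts5 were thus well above the level of 3 reads in both libraries, whereas Adamts15 was at 3 reads in shGpx4 and 6 in shNC and Adamts8 was listed at 0 in both.

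**Figure D4:**
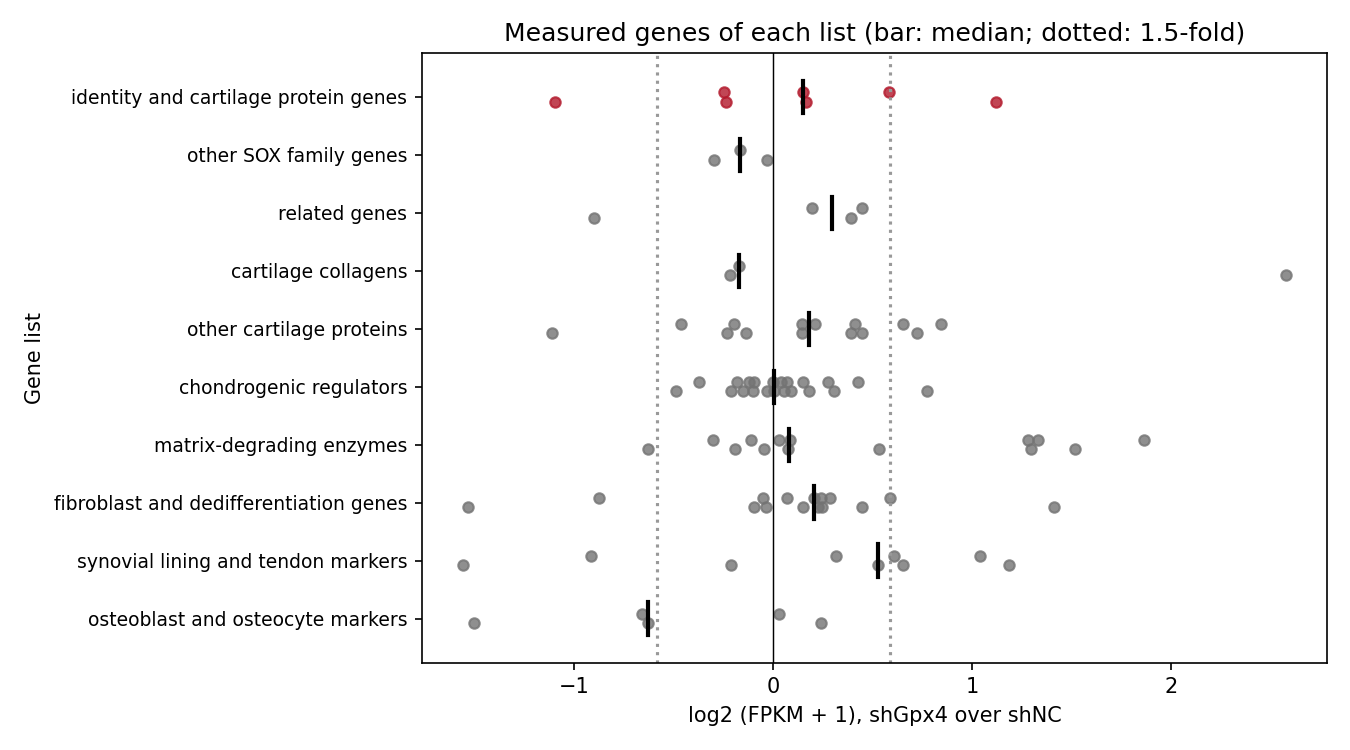
Ratios on the FPKM + 1 scale (log2, shGpx4 over shNC) of the measured genes of each list, one point a gene, with the median as a black bar and 1.5-fold as dotted lines. The 7 measured identity and cartilage protein genes (top, red) run from -1.09 for Cilp to 1.12 for Lect1, and Col2a1 is the point farthest to the right.

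Markers of other cells that cartilage cultures can hold moved as well. Of 9 measured synovial lining and tendon markers, 4 were at least 1.5-fold higher and 2 lower, with a median of 0.53 and a summed level over all 12 of 252 FPKM in shGpx4 and 242 FPKM in shNC. Among the higher ones, Tspan15 passed the filter on the mean through shGpx4 alone, at 2.10 FPKM in shGpx4 and 0.974 FPKM in shNC (0.65). With no filter the median was 0.12. Thbs4 was at 63.5 FPKM in shGpx4 and 27.4 FPKM in shNC (1.18), Clic5 at 3.25 FPKM in shGpx4 and 1.07 FPKM in shNC (1.04), Kera at 3.45 FPKM in shGpx4 and 7.40 FPKM in shNC (-0.92) and Clec3b at 33.4 FPKM in shGpx4 and 100.5 FPKM in shNC (-1.56). Fibroblast and dedifferentiation genes had 2 of 15 higher and 2 lower, with a median of 0.20 and a summed level of 6449 FPKM in shGpx4 and 6677 FPKM in shNC; among them Tnc (1.41) and Thy1 (0.59) were higher and Postn (-1.53) and Acta2 (-0.88) lower. Of 5 measured osteoblast and osteocyte markers 3 were lower, Dmp1 (-1.50), Phex (-0.66) and Ibsp (-0.63), with a median of -0.63, while the summed level was 8910 FPKM in shGpx4 and 8745 FPKM in shNC, of which Spp1 held 8897 FPKM in shGpx4 and 8720 FPKM in shNC. Their part in the values of Lect1, Prg4, Cilp and Chad was not tested.

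Blood, vessel, fat and muscle markers were low beside the most abundant matrix genes, but some stood above Hapln1 and Cilp in both libraries. Among these were the mural marker Rgs5, at 19.5 FPKM in shGpx4 and 18.2 FPKM in shNC, and the adipocyte marker Cebpa, at 19.6 FPKM in shGpx4 and 19.7 FPKM in shNC. Macrophage and leukocyte markers summed to 23.2 FPKM in shGpx4 and 21.7 FPKM in shNC, with 3 of 12 measured and Ptprc and Cd3e at 0 in both. Lyz2 was at 1.86 FPKM in shGpx4 and 7.67 FPKM in shNC (-1.60), and Cd14 at 17.1 FPKM in shGpx4 and 9.19 FPKM in shNC (0.83). Endothelial and mural markers summed to 31.2 FPKM in shGpx4 and 25.6 FPKM in shNC, with Cdh5 at 0 in both and Eng the largest ratio (0.86). Adipocyte markers summed to 25.3 FPKM in shGpx4 and 27.7 FPKM in shNC, with 4 of 7 measured and none past 1.5-fold on the FPKM + 1 scale. Lpl lay just inside that line (-0.58), at 0.637 FPKM in shGpx4 and 1.44 FPKM in shNC, with a log2 FPKM ratio of -1.18 (counting interval -1.67 to -0.70). Plin1 had 0 reads in shGpx4 and 7 in shNC. No skeletal muscle marker was measured.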

How the data were processed

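Messenger RNA of 2 cultures, shGpx4 and shNC, was measured in 1 library each, grouped by the treatment in the labels. Per the labels' protocols, a stranded mRNA kit was used. The submitters' processing notes name Cufflinks, HISAT2 and Trimmomatic and the build GRCm38. The deposited values were read as FPKM from the values and those notes. Strand setting, filters and versions: not given in the sources used here, so overlapping, antisense and near-identical genes may share reads.

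Library totals were recovered from the FPKM of single-read genes. All 15153 genes above 0 then divided into whole reads over whole lengths, deviating from whole numbers by at most 6.4e-10. True reads may be a common multiple of these smallest ones, which make up 90.0% of the shGpx4 total and 89.9% of the shNC total. Ratios used a pseudocount of 1 FPKM without rescaling, and genes with a mean of at least 1 FPKM were counted at 1.5-fold. Exact Clopper-Pearson (ratios) and Poisson (levels) 95% intervals cover counting error only, and PCR reads are not independent molecules. No test was made. The members and 13 further lists, 196 entries in all, were chosen with earlier results of these data known. Snorc and Fgfbp2 and the human symbol Znf219 were not matched. The rule named all members, each detected related gene, each cartilage collagen and up to 4 measured genes of each list with the largest absolute ratio; Sox8, Sox10, Sox11, Adamts4, Adamts5, Adamts8, Adamts15, Ctsk, Mmp9, Comp, Fmod, Mycn, Bmpr1b, Barx2, Plin1, Spp1 and the Y-linked genes were chosen with values in view. So were Ucma, Cytl1, Epyc, Col1a1, Col1a2, Susd5 and Tspan15. A symbol search replaced 27 date-like names through Entrez numbers. Locations come from RefSeq GRCm38.p6, exon lengths and overlaps from GENCODE vM21, promoters from the RefSeq table of GRCm38.p6. Steps were tested on simulated data. Software was matplotlib 3.10.9, pandas 2.3.3, scipy 1.17.1, numpy 2.4.6 and Python 3.11.15.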

Additional observations from a re-analysis of the deposited data

How the results depend on the processing

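No paired analysis was possible because each group has 1 library and no test was made; for the same reason no replicate could be left out. Of 169 alternative values for 24 results, 139 stayed within counting error or, for counts, within 1.5 times. Lect1 and Cilp, the only ones of the 7 measured genes past 1.5-fold on the FPKM + 1 scale, kept their sign throughout. These settings could not have reversed ratios of that size, so the kept sign is no support for them. Centring, for example, removed a median of only -0.04 over all measured genes. The count of the 10 genes at least 1.5-fold higher was 2 in place of 1, with Prg4 joining Lect1, under a pseudocount of 0.1, after centring on the median, after scaling to equal trimmed means of log ratios or equal 75th percentiles, and with recovered reads to which 0.5 was added. The count at least 1.5-fold lower was 2 with no filter on low values, where Chad joins Cilp. Some ratios of single genes moved by more than counting error. That of Prg4 was 0.62 after centring and the 75th percentile and 0.63 after the trimmed mean, against 0.58. With recovered reads that of Sox6 was -0.39, against -0.24, and that of Cilp -1.29, against -1.09. The median of other cartilage proteins was 0.21 with a pseudocount of 0.1 and with recovered reads, 0.22 after centring, the 75th percentile or the trimmed mean, 0.15 at a mean of at least 5 and 0 with no filter. That of fibroblast genes was 0.25 after the 75th percentile and the trimmed mean. That of osteoblast markers was -0.94 with a pseudocount of 0.1, -0.98 with recovered reads, 0.029 at a mean of at least 5 and -0.067 with no filter. At a mean of at least 5 the medians were -0.23 for related genes, 1.20 for cartilage collagens and 0.83 for macrophage markers, since fewer genes enter; these and the osteoblast median there have the other sign than with the minimum of 1. With no filter they were -0.0085 for related genes, 0.12 for synovial and tendon markers and -0.0066 for endothelial markers, so that related genes and endothelial markers changed sign. The macrophage median of -0.03 was also just above 0 after centring, the 75th percentile and the trimmed mean. Depth limits Acan, Matn3 and Chad most, and without replicates the spread between cultures is unknown.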
